A study of Drosophila melanogaster with 6 samples.

Results

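Of 95996 DamID peaks deposited for the microproteins Simba1 and Simba2 in the Drosophila larval brain, 2372 lay on sequences outside the chromosome arms 2L, 2R, 3L, 3R, 4 and X, the Y and the mitochondrial genome. These were selected by sequence name alone and are the peaks on unplaced scaffolds, on scaffolds placed only roughly, and on the rDNA sequence of the dm6 assembly. The Simba1 lists held 241 such peaks in batch 1 and 653 in batch 2, and the Simba2 lists held 447 and 1031. They fell on 796 sequences.

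In DamID a bacterial adenine methyltransferase (Dam) is fused to a protein of interest and marks GATC sites near the places where the protein rests, and the methylated fragments are cut with DpnI, amplified and sequenced. Dam alone, Dam-Simba1 or Dam-Simba2 was expressed from a UAS transgene by grh-Gal4, a driver used for neural stem cells, with temperature-sensitive tub-Gal80 to hold it off at the lower temperature. Embryos from a 4 h collection were held at 18 °C for 44 h and then at 29 °C for 24 h before the brains were dissected. There were 6 samples, 1 of each of the 3 constructs in each of 2 batches, and each fusion library has 1 peak list, called against the Dam sample of its batch. The fusion proteins came from transgenes, so the peaks do not report the endogenous proteins, and the DNA came from brain tissue, so the cells that carried the signal rest on the driver. Peak files carry no expression values, so neural stem cell identity could not be checked against marker genes. The labels do not say whether the batches came from separate animals, so each p-value covers the spread between libraries, which may be technical.

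Unplaced scaffolds are stretches of assembled sequence that could not be joined to a chromosome, and in Drosophila they come largely from pericentromeric heterochromatin and the Y, which are rich in satellites and transposons. The rDNA arrays on the X and Y hold many nearly identical repeats of the 18S, 5.8S, 2S and 28S ribosomal RNA genes and form the nucleolus. In such repeats a read can match several places equally well, and how the aligner settled this is not given in the sources used here.

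The libraries held between 1069703 and 1506081 filtered tags (reads as the peak caller counted them), and the 2 Dam controls held 868080 and 1321104. The lists held 17254 peaks for Simba1 batch 1, 21026 for Simba1 batch 2, 22479 for Simba2 batch 1 and 35237 for Simba2 batch 2. Their headers give a q cutoff of 1, so the lists are long and hold weak peaks, and a genome size of 2.91e+09 bp, far above that of the fly. Simba1 batch 2 stood apart by 6 peaks above 50-fold enrichment, which the other lists lacked, and values that rest on them are given with and without them.

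The sequences carried names of several kinds. Of the 796, 748 had all-digit names that give no chromosome, 22 were called Unmapped, 12 were mapped to the Y, 6 to the centromere region of chromosome 3 (3Cen), 2 each to 2Cen, to XY and to X3X4, 1 to 2R2, and 1 was the rDNA sequence. All-digit scaffolds held 58.1% and 71.2% of the selected peaks in Simba1 batches 1 and 2, and 65.1% and 60.0% of those in Simba2 batches 1 and 2. The 12 Y scaffolds held 25, 44, 50 and 102 peaks in the same order, and the 6 3Cen scaffolds 10, 24, 14 and 57. Both kinds followed the order of the peak totals except that Simba2 batch 1 passed Simba1 batch 2 on the Y scaffolds.

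Peaks on scaffolds recurred between libraries on a minority of sequences. A peak was listed on 157 sequences in Simba1 batch 1, 424 in Simba1 batch 2, and 293 and 537 in the Simba2 batches. Of the 796 sequences, 421 were hit in 1 list, 210 in 2, 90 in 3 and 75 in all 4, so that 375 (47.1%) were hit in more than 1 library. The 75 sequences hit in every list were 9.42% of the sequences and held 988 of the peaks (41.7%). By name, 42 of them were all-digit, 14 Unmapped, 10 Y, 3 3Cen, 2 XY, 2 X3X4, 1 2R2 and 1 rDNA.

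Sequences hit in more lists also had a higher listed end. No scaffold lengths were used here, and the highest peak end listed for a sequence stands for a lower bound of its length. That bound had a median of 800 bp over sequences hit in 1 list, 1387 bp in 2, 2585 bp in 3 and 11735 bp in 4. Being a maximum over the peaks of all lists, the bound tends to rise with the number of lists and peaks. It cannot show how far these sequences differ in true length. Hits on one sequence need not lie at one site, and sites were compared next.

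At the level of sites, recurrence was lower than at the level of whole sequences. The 2372 peaks merged, where they shared at least 1 bp, into 1592 regions. Of these, 1055 were covered by 1 list, 384 by 2, 112 by 3 and 41 (2.58%) by all 4. No merged regions are given here for the arms, so these counts cannot be called particular to scaffolds. Pairs of lists from different batches, which share no Dam control, overlapped as follows. For Simba1, 30.3% of the scaffold peaks in batch 1 overlapped one in batch 2, and 11.2% of those in batch 2 overlapped one in batch 1. For Simba2 these shares were 49.7% and 22.7%. On the arms the same shares were 26.9% and 22.7% for Simba1, and 51.9% and 33.7% for Simba2. Across proteins, 55.6% of Simba1 batch 1 peaks on scaffolds overlapped a Simba2 batch 2 peak and 13.1% in the other direction, and 16.5% of Simba1 batch 2 peaks overlapped a Simba2 batch 1 peak and 23.3% in the other direction. On the arms these cross-protein shares were 54.5% and 27.7%, and 28.0% and 25.8%. The shares thus moved with the length of the list they were set against, and lists of the same protein did not stand above lists of different proteins throughout.

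Among the 41 regions found in all 4 lists, 16 had a q of 0.05 or lower in every list and 3 had a q of 0.001 or lower in every list. The region ranked highest by q lay on X3X4_mapped_Scaffold_6_D1712, from 19183 to 19598. Its summit pileup, which is the number of extended tags over the summit after scaling to the smaller library, was 43.0 and 36.0 in the Simba1 lists (batches 1 and 2) and 53.6 and 51 in the Simba2 lists. The fold enrichment over the Dam background was 3.14, 3.70, 4.20 and 5.40. Both Simba2 folds lay above both Simba1 folds, and the 4 summits lay within 16 bp of each other. The library size that sets the pileup scale differs most between batches, so pileups are best read within a batch. Within each batch the Simba2 pileup was the higher. The folds are the values of the authors' peak caller and rank peaks within a list.

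The other scaffold of this name class, X3X4_mapped_Scaffold_14_D1732, had a region from 4373 to 4836 with folds of 4.55, 3.15, 5.15 and 4.09 in the same order of libraries. Here the proteins overlapped and both batch 1 lists lay above both batch 2 lists. On 211000022280742, from 11020 to 11559, the folds were close to each other at 3.32, 3.51, 3.14 and 3.58. On 211000022278724, from 1718 to 2858, the pileup was high in all lists, at 76.5, 70.2, 51.1 and 130, and the folds were 3.87, 1.51, 2.37 and 2.90. Its background was high as well, with a Dam lambda (the tags expected from the control at the summit) of 19, 46, 21 and 44.1. The lowest fold of this region stood in the library with the highest lambda, but the folds did not follow lambda throughout. Simba2 batch 2 had a fold of 2.90 at a lambda of 44.1, above the 2.37 of Simba2 batch 1 at 21.

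For 211000022280624, from 477 to 1030, the folds were 2.72, 5.69, 4.22 and 4.34. For 211000022278355, from 582 to 1154, they were 2.85, 8.05, 2.93 and 6.96, with both batch 2 lists above both batch 1 lists and no separation by protein. In these 6 regions the summits of the 4 lists lay between 16 and 134 bp apart. None of the 6 carries a gene name here, since no annotation of these scaffolds was used.

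**Figure D1:**
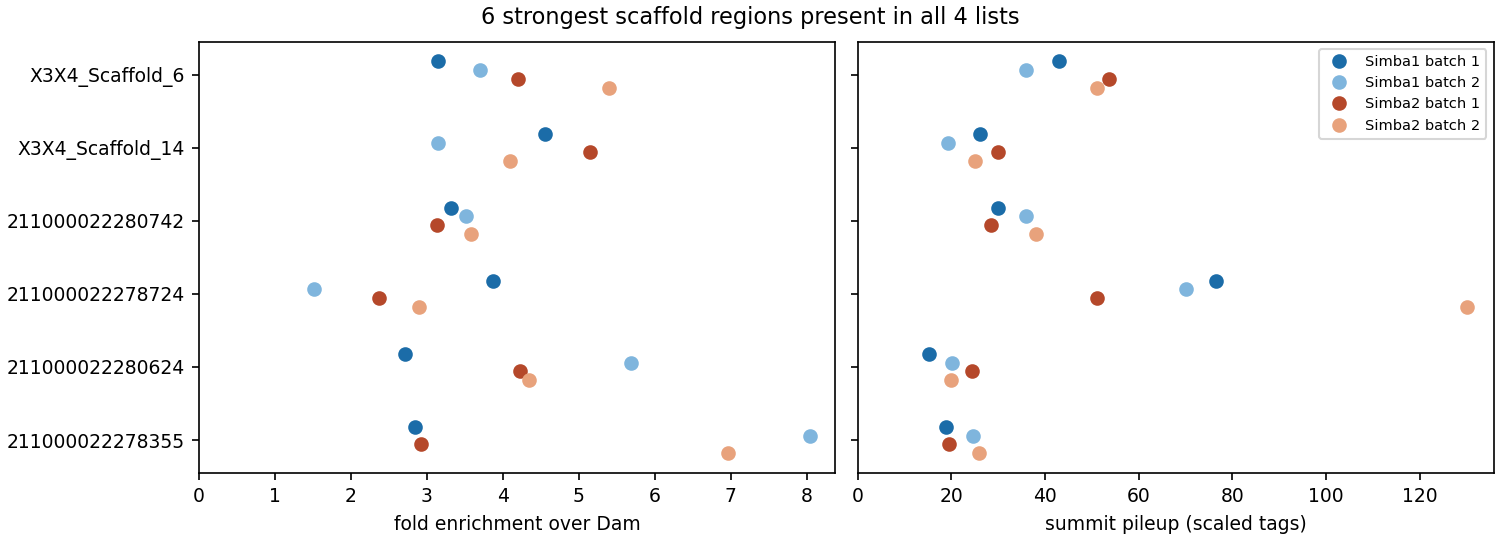
Fold enrichment over Dam (left) and summit pileup in scaled tags (right) of the 6 regions listed in all 4 lists with the highest mean rank by q, 1 point for each library. Folds ran from 1.51 to 8.05, and by fold the libraries of one protein separated from those of the other only on X3X4_Scaffold_6. Pileups are scaled to libraries of different size.

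The sequences with the most peaks were an Unmapped scaffold, with 59 in all, and the rDNA, with 45, followed by XY, X3X4, 3Cen, Y and other Unmapped scaffolds. Unmapped_Scaffold_8_D1580_D1567 had 9, 18, 7 and 25 peaks in the 4 lists, with median pileups of 3.64, 5.26, 4.06 and 4. XY_mapped_Scaffold_7_D1574 had 7, 9, 9 and 19 peaks with median pileups of 9.47, 7.89, 10.6 and 10, and X3X4_mapped_Scaffold_6_D1712 had 6, 11, 8 and 14 with median pileups of 8.38, 7.89, 13.8 and 10. The median pileup of these 2 scaffolds was above that of Unmapped_Scaffold_8 in every list, while the tallest Simba2 batch 2 peak was 28 on Unmapped_Scaffold_8 and 17 on XY_mapped_Scaffold_7_D1574. By contrast 3Cen_mapped_Scaffold_31_D1643_D1653_D1791, with 5, 5, 5 and 19 peaks, had median pileups of 2.19, 3.51, 0.81 and 1. Simba2 batch 2 had the most peaks on each of these 4 scaffolds.

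The rDNA sequence carried 45 peaks, 7 in Simba1 batch 1, 5 in Simba1 batch 2, and 5 and 28 in the Simba2 batches. They covered 2537, 2188, 1960 and 13363 bp. The number with a q of 0.05 or lower was 1, 4, 3 and 21, beside shares of 60.4%, 42.4%, 52.7% and 56.1% of all peaks in the same lists. By number and covered length Simba2 batch 2 stood above the other 3 lists, which lay close together, while as a share of the rDNA peaks those passing were 14.3%, 80%, 60% and 75%, on 7, 5, 5 and 28 peaks. The 45 peaks merged into 29 regions, 16 in 1 list, 10 in 2, 3 in 3 and none in all 4.

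The RefSeq gene table of the same assembly lists 21 genes assigned jointly to X and Y, between positions 4492 and 74924. These were taken as the annotation of the rDNA sequence, which is an inference from the names and the range of positions. They hold 3 precursor transcription units, pre-rRNA:CR45845 from 42623 to 49485, pre-rRNA:CR45846 from 55104 to 59294 and pre-rRNA:CR45847 from 66807 to 74924, the 11 mature rRNA genes within them, 2 copies of mir-10404, and 5 rRNA pseudogenes. The 18S rRNA is the core of the small ribosomal subunit and the 28S rRNA that of the large one.

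Within the precursor units the peaks were tall and had low folds. At most 1 tag per position was kept, and the effect of that limit on these pileups and folds was not tested. Simba1 batch 1 had 2 peaks there with pileups of 88.9 and 106, Simba1 batch 2 had 1 of 217, Simba2 batch 1 had 3 between 154 and 215, and Simba2 batch 2 had 13 between 111 and 317. Their folds were 1.31 to 1.36, 1.32, 1.21 to 1.74 and 1.25 to 2.43. The Dam control was also high over these units, with lambda between 65.2 and 81.0, at 164, between 88.0 and 174, and between 45.1 and 178. Tall peaks in the ribosomal units therefore stood on a tall Dam signal in every list.

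Outside the precursor units the listed rDNA peaks had lower pileups and higher folds. There were 5, 4, 2 and 15 of them, with median pileups of 4.37, 12.7, 9.74 and 8 and median folds of 2.73, 2.67, 4.01 and 2.00, beside median folds inside the units of 1.33, 1.32, 1.23 and 1.76. The median fold was higher outside in all 4 lists, on as few as 2 peaks outside (Simba2 batch 1) and 1 inside (Simba1 batch 2). Lambda outside ran from 0.388 to 4.10, 3.32 to 35, 0.391 to 4.30 and 0.562 to 72.9. Peaks are listed by p, and a lower fold can reach the same p at a higher lambda. Folds at such unlike lambda therefore do not compare enrichment on like terms. The region from 11061 to 11557, which has no gene in the table, was listed by 3 libraries with folds of 5.45 in Simba1 batch 1 and of 5.39 and 1.65 in the Simba2 batches. The other 2 regions in 3 lists, from 20125 to 20636 and from 21891 to 22357, lay in the 28S pseudogene 28SrRNA-Psi:CR40596. At the pseudogene 28SrRNA-Psi:CR45851 a peak was found in both batch 2 lists, with a pileup of 90.4 and a fold of 2.54 for Simba1 and of 108 and 3.07 for Simba2.

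Of the 13 summits of Simba2 batch 2 in the precursor units, most recurred at like distances in more than one unit. In the 18S gene they lay 2379, 2378 and 2330 bp from the start of the unit in units 1, 2 and 3, and at 1472 and 1465 bp in units 1 and 2. In the spacer after the 18S gene they lay at 3109, 3252 and 3216 bp. In the 28S gene of units 1 and 3 they lay at 4704 and 4897 bp and at 6130 and 6127 bp. Simba2 batch 1 had summits at 1463 and 2476 bp in unit 1 and at 2428 bp in unit 2, Simba1 batch 2 had its 1 summit at 6885 bp in unit 3, and Simba1 batch 1 had summits at 4060 bp in unit 1 and 4816 bp in unit 3. The tallest summit, at 6840 bp in unit 3 with a pileup of 317, had no counterpart in unit 1. That position lies at the very end of unit 1, which is 6863 bp long in the table, and unit 2 has no 28S gene there. Ribosomal genes are repeats, so a read can match more than one unit where their sequence is shared, and like positions in several units are not separate observations; the sequences of the units were not compared here.

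**Figure D2:**
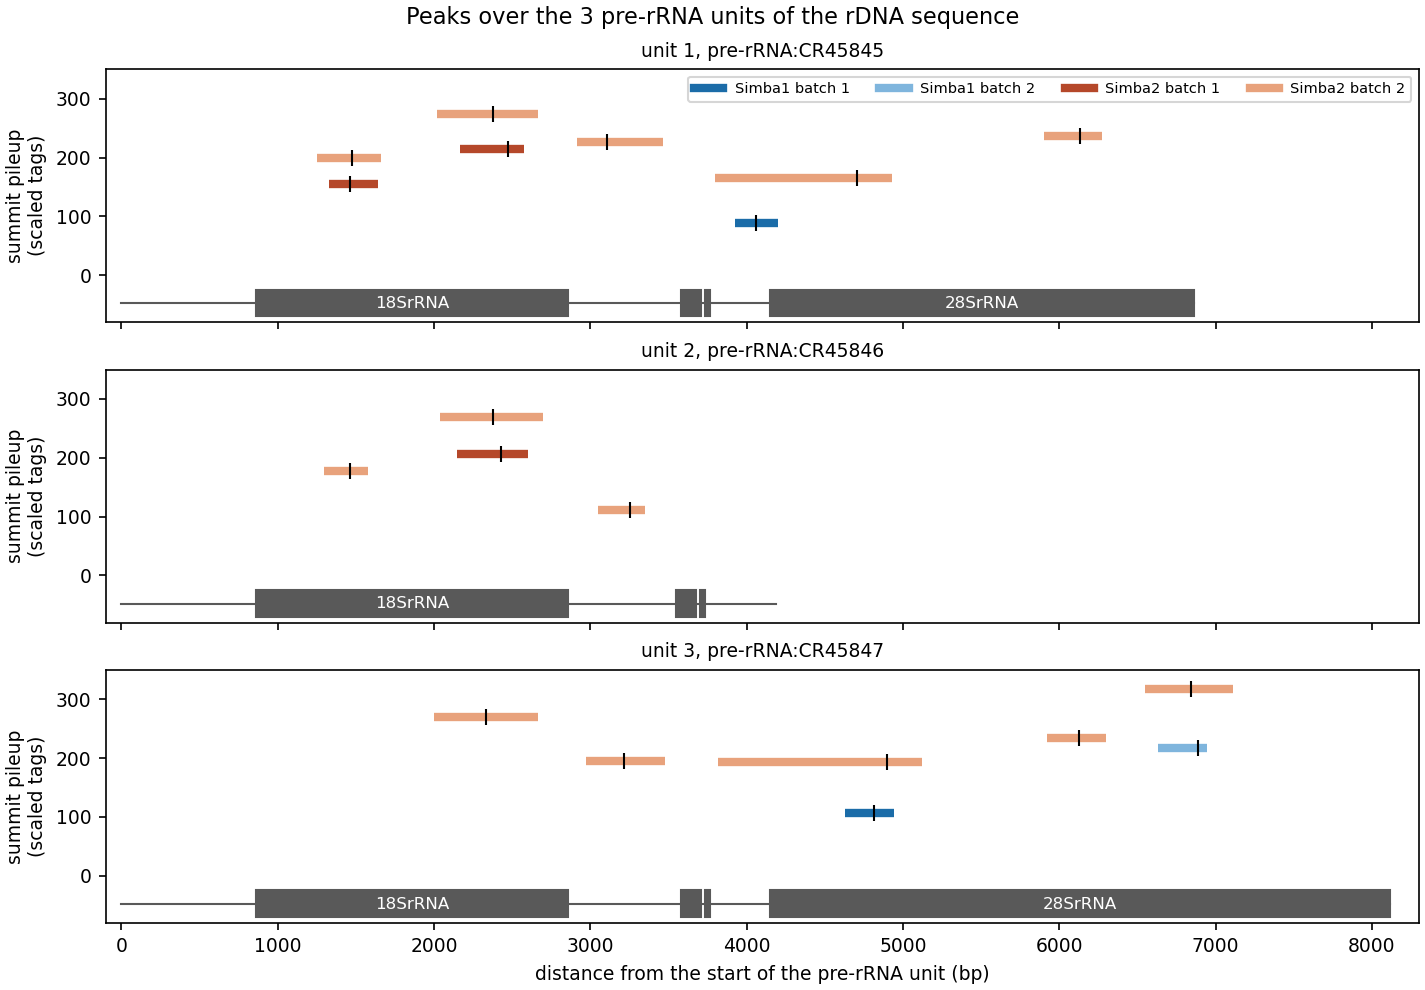
Peaks over the 3 pre-rRNA units against the distance from the start of the unit in bp, with the summit pileup in scaled tags on the vertical axis, coloured bars for peaks, ticks for summits and grey boxes for rRNA genes. Simba2 batch 2 has 13 of the 19 peaks, and its highest, 317, lies in the 28S gene of unit 3.

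Counting the rDNA, few selected peaks rose above the tallest arm peak of their list. The tallest arm pileup was 86.0 and 476 in the Simba1 lists (batches 1 and 2) and 93.3 and 114 in the Simba2 lists. Above it lay 3 selected peaks (2 of them rDNA), 0, 4 (3 rDNA) and 16 (12 rDNA). The tallest arm peak of Simba1 batch 2 is one of the 6 above 50-fold, and without those 6 its tallest arm pileup was 104 and 1 selected peak, on the rDNA, lay above it. The scaffold that recurred among them was 211000022278750, whose peak had its summit at base 777, 794 and 779 and a pileup of 174, 199 and 245 in Simba1 batch 1 and the 2 Simba2 batches. Its folds were 1.62, 1.92 and 2.08 over lambda values of 107, 103 and 117, and Simba1 batch 2 had no peak on this scaffold. Like the ribosomal units, it combined a high pileup with a high Dam signal.

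Of the 3 tallest selected peaks of Simba1 batch 2, 1 was the rDNA peak with a pileup of 217 and a fold of 1.32, and the other 2 had little Dam background. Of its 21026 peaks, 6 exceeded 50-fold (0.0285% of the list), and 2 of the 6 lay on scaffolds. The first, on 211000022280462 from 3 to 1242, had a pileup of 220.2 from 251 tags over a lambda of 0.163, a fold of 190.1 and a −log10 q of 592. The second, on 211000022278768 from 1 to 907, had a pileup of 129.8 from 148 tags over a lambda of 0.272, a fold of 103 and a −log10 q of 288. In both, the lambda lay below 1 tag. A genome size nearer that of the fly would raise the lowest possible lambda, and whether these folds would hold was not tested.

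The other lists showed little at these bases. On 211000022280462 Simba2 batch 1 had an overlapping peak of 1 tag, from 1 to 2844 with a fold of 1.67, Simba1 batch 1 had its only peak of the scaffold elsewhere, from 5033 to 5524 with a pileup of 2.91, and Simba2 batch 2 listed none. On 211000022278768 the overlapping peaks had a pileup of 4.37 and a fold of 2.69 in Simba1 batch 1, and a pileup of 3 and a fold of 2.61 in Simba2 batch 2. The 2 scaffold peaks were thus present at this height in 1 of the 2 Simba1 libraries.

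The 4 remaining peaks above 50-fold lay on arms, at 3R from 1905909 to 1906930 with a fold of 179, at 3L from 23736822 to 23738034 with 136, at 3R from 1909363 to 1910138 with 88.2 and at 3L from 24579109 to 24579734 with 81.3. None of these 4 overlapped a peak of another list. The next highest fold in Simba1 batch 2 was 11.7, also on a scaffold (211000022278299, from 2002 to 2420), and the highest folds of the other lists were 15.7, 19.6 and 12.1. The mean pileup of the scaffold and rDNA peaks in Simba1 batch 2 was 8.11 with the 2 peaks and 7.60 without, the mean fold 3.68 and 3.24, and both medians were the same with and without them, at 5.26 and 3.13. What placed these reads in 1 library was not tested.

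**Figure D3:**
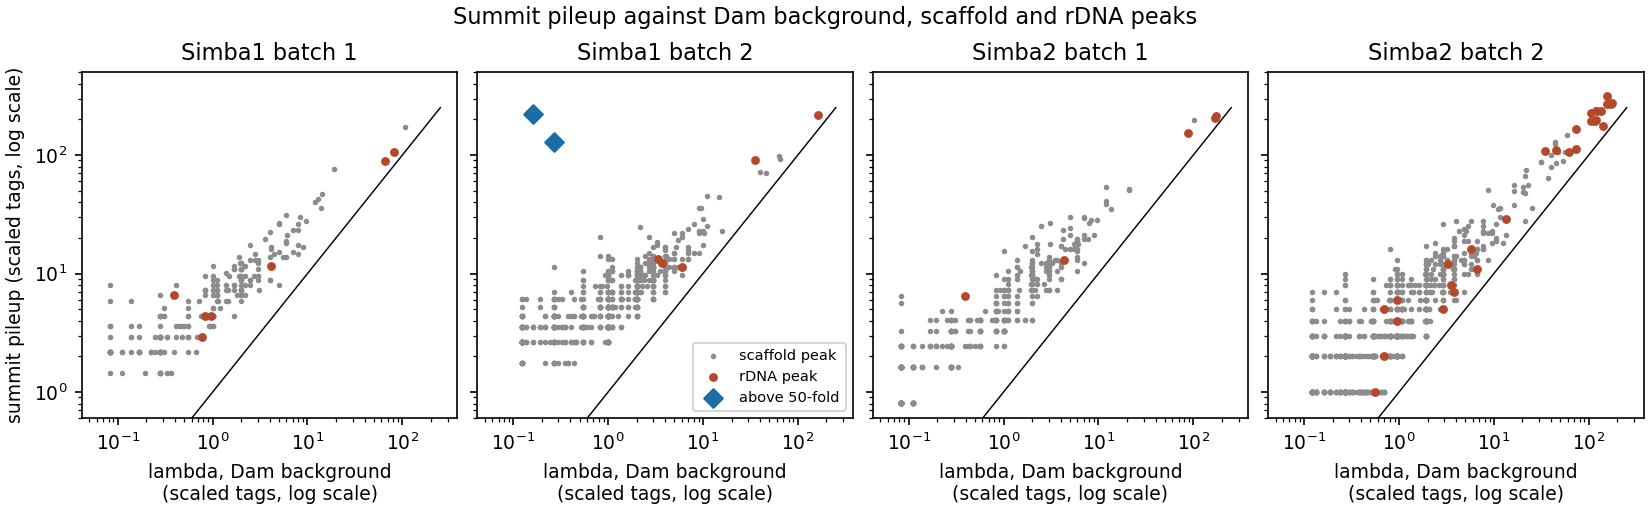
Summit pileup against the Dam lambda at the summit, both in scaled tags on log axes, for every scaffold and rDNA peak of each library, with the line where they are equal. The rDNA peaks of the ribosomal units sit at the upper right near the line, and the 2 blue diamonds of Simba1 batch 2, at 220.2 and 129.8, sit alone at the upper left.

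At the low end the lists differed in make-up and in where they ended. In Simba1 the lowest summit on a scaffold held 2 tags in both batches. In Simba2, 113 of the 447 peaks in batch 1 (25.3%) and 249 of the 1031 in batch 2 (24.2%) had a summit of 1 tag, beside 0.992% and 2.37% of all peaks in those lists and 0% in either Simba1 list. The lowest −log10 p listed was 1.12 and 1.02 for Simba1 and 0.943 and 0.798 for Simba2, so the lists end at different strengths. Even over the lowest lambda of either Simba1 list, a 1-tag summit has a −log10 p below the lowest one listed. A 1-tag peak thus falls short of where the Simba1 lists end, and the 0% there cannot be read as a difference between the proteins. The end of a list is itself read from its listed peaks, and what set it was not tested. A 1-tag summit means that no base of the peak was covered by more than 1 extended tag.

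The 1-tag peaks of Simba2 could be very long. Their median length was 1158 bp and their longest 12885 bp in batch 1, and 390 bp and 11208 bp in batch 2. The longest need at least 32 and 28 tags strung along the scaffold, from the tag and fragment sizes in the file headers. Peaks of 1000 bp or more numbered 1 and 9 in Simba1 and 109 and 158 in Simba2, with median summits of 16, 9, 1 and 2 tags. Since the lists end at different strengths and the Simba1 lists held no 1-tag peaks, these counts do not compare the proteins on like terms. In Simba2 batch 1 the longest was 2Cen_mapped_Scaffold_43_D1668 from 1 to 12897 with a pileup of 1.62 from 2 tags, and in Simba2 batch 2 it was Y_mapped_Scaffold_30_D1720 from 6616 to 21950, 15335 bp, with 4 tags. The longest Simba1 peaks on scaffolds were of 1090 and 1505 bp.

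**Figure D4:**
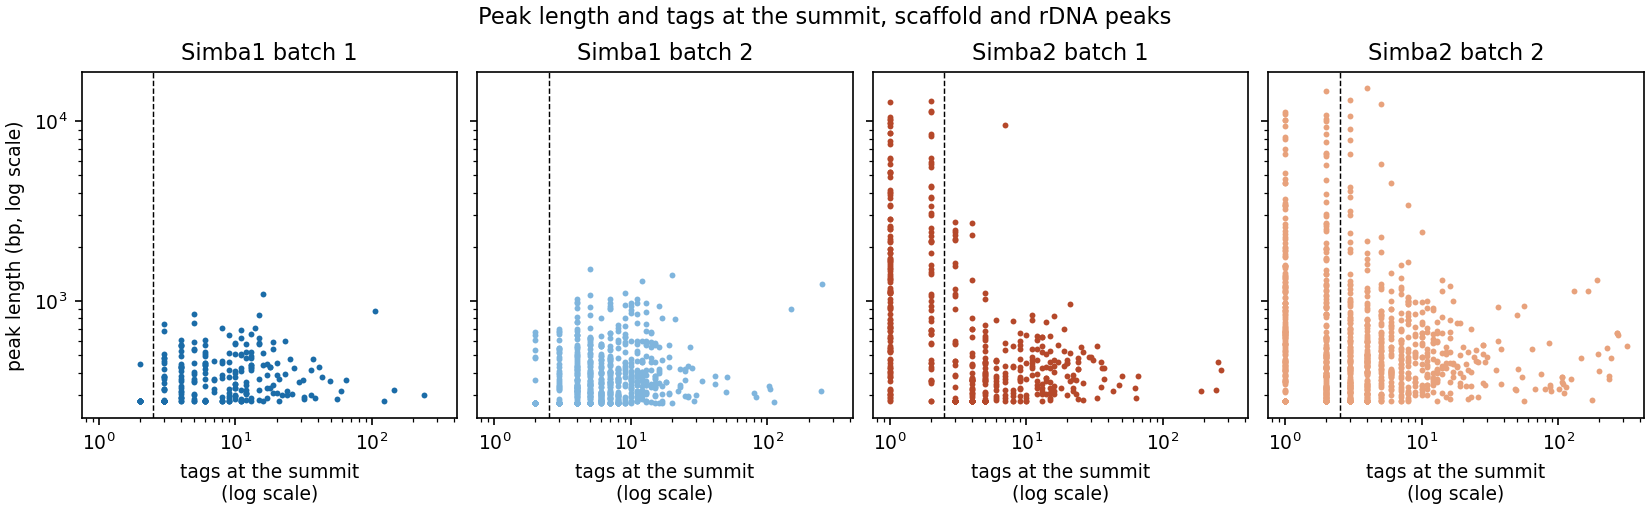
Length of each scaffold and rDNA peak in bp against the tags at its summit, both on log axes, by library, with a dashed line below 3 tags. The Simba1 peaks stay at or under 1505 bp, while the Simba2 peaks left of the line reach 12885 bp at 1 tag.

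Relative to the highest listed end of a sequence, peaks covered more in the longer lists. The median share of a hit sequence that peaks covered, up to its highest listed end, was 14.0% and 30.4% in the Simba1 lists (batches 1 and 2) and 35.6% and 49.7% in the Simba2 lists. Because the true lengths are at least as large as the highest end, these are upper limits. Sequences hit by 1 list alone numbered 7, 140, 73 and 201 in the same order, and there the end comes from the peaks of that list. Sequences covered to 80% or more numbered 2, 25, 82 and 153. Peaks that spanned a sequence from base 1 to its highest listed end numbered 0, 0, 62 and 105, of which 38 and 55 in Simba2 had a 1-tag summit. That end can be set by the same peak, so the count does not show that whole scaffolds were covered. A start at base 1 occurred in 0 and 2 Simba1 peaks and in 114 and 165 Simba2 peaks. The median summit of these Simba2 peaks was 1 tag in both batches, and the Simba1 lists held no 1-tag peaks.

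Scaffold and rDNA peaks were lower than arm peaks of the same list, over a lower Dam background. The median pileup was 5.83 on scaffolds and 8.74 on arms in Simba1 batch 1, 5.26 and 8.77 in Simba1 batch 2, 3.25 and 8.12 in Simba2 batch 1, and 3 and 10 in Simba2 batch 2. The log2 ratio of the medians was −1.09 ± 0.53 (SD, n = 4), below 0 in 4 of 4 libraries, with p = 0.125 by an exact two-sided sign-flip permutation test, the smallest p that 4 libraries allow. The median lambda was 1.00 and 2.02, 1.00 and 2.64, 0.391 and 2.01, and 0.803 and 3.21 in the same order, a log2 ratio of −1.69 ± 0.60 (SD, n = 4), lower in 4 of 4 libraries (p = 0.125, the same exact test). The design could not reach 0.05 for either. Lambda comes from the 2 Dam controls, each shared by the 2 lists of its batch, so its 4 values are not independent. With batch as the unit the smallest possible p is 0.5. The tests of fold and q against the arms rest on the same 2 controls. They and lambda also rest on the genome size given to the peak caller, and other sizes were not tried.

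The median fold differed less than the pileup and the background. It was 2.98 on scaffolds and 2.95 on arms in Simba1 batch 1, 3.13 and 2.67 in Simba1 batch 2, 2.42 and 2.79 in Simba2 batch 1, and 2.22 and 2.45 in Simba2 batch 2. The log2 ratio was −0.03 ± 0.19 (SD, n = 4; exact sign-flip permutation test, p = 1). It was above 0 in both Simba1 lists and below 0 in both Simba2 lists. The mean was above 0, at 0.12, when summits of under 3 tags were left out.

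Peak length differed from the arms in opposite directions as well. Median lengths were 350 bp on scaffolds and 427 bp on arms, 343 and 382, 457 and 420, and 435 and 420, a log2 ratio of −0.07 ± 0.19 (SD, n = 4; exact sign-flip permutation test, p = 0.625). The share of peaks with a q of 0.05 or lower was 56.0% on scaffolds and 60.5% on arms in Simba1 batch 1, 53.3% and 42.0% in Simba1 batch 2, 37.4% and 53.4% in Simba2 batch 1, and 38.5% and 57.3% in Simba2 batch 2. The mean difference was −7.01 ± 13.7 percentage points (SD, n = 4; exact sign-flip permutation test, p = 0.375), with Simba1 batch 2 going the other way. Without summits under 3 tags it was 3.88 points.

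Summits of under 3 tags made up 4.15%, 3.06%, 36.9% and 42.1% of the scaffold peaks and 0.499%, 0.0850%, 0.778% and 2.42% of the arm peaks. They were more frequent on scaffolds in 4 of 4 libraries, by 20.6 ± 20.03 percentage points (SD, n = 4; exact sign-flip permutation test, p = 0.125). The Y, which is also heterochromatic and repeat-rich, had still more of them, at 8.88%, 5.21%, 40.5% and 57.0%. Median pileups on the Y were 3.64, 3.51, 2.43 and 2, below those on scaffolds in 4 of 4 libraries, with a log2 ratio of scaffolds over Y of 0.57 ± 0.11 (SD, n = 4; exact sign-flip permutation test, p = 0.125). By these 2 measures scaffold and rDNA peaks lay between the Y and the arms.

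**Figure D5:**
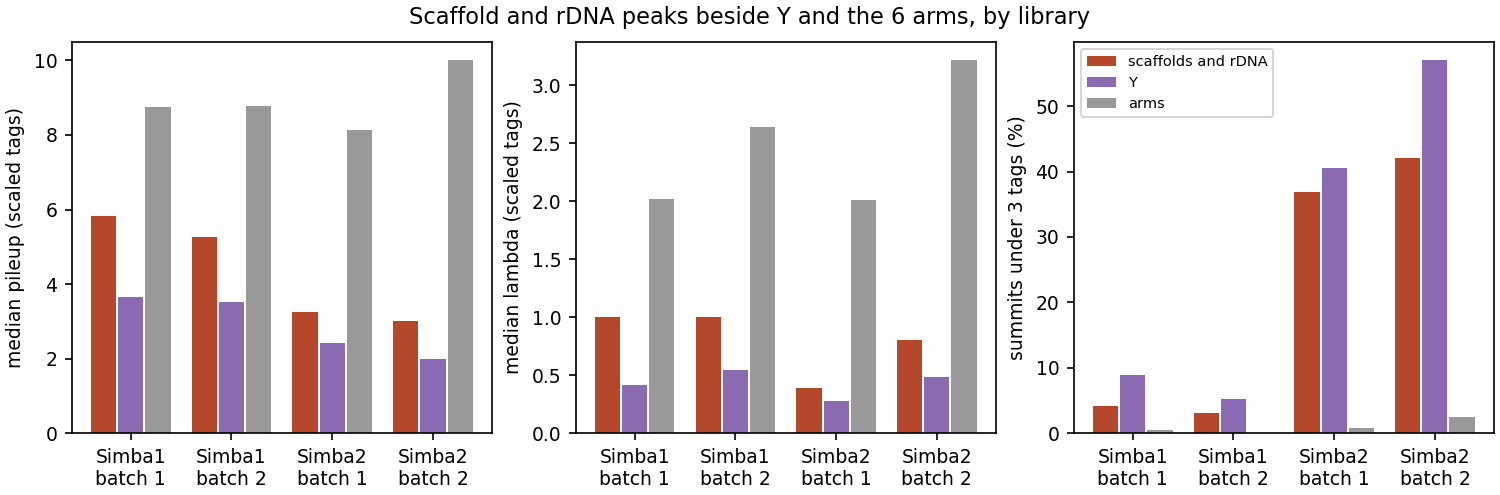
Median pileup and median lambda in scaled tags, and the share of summits under 3 tags in percent, for scaffold and rDNA peaks, Y peaks and peaks of the 6 arms in each library, 1 bar per list. In every library the scaffold bar lies between the Y bar and the arm bar in all 3 panels.

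Simba2 had more scaffold and rDNA peaks than Simba1 within each batch, by 206 in batch 1 and 378 in batch 2. With 2 libraries a protein this could not be set apart from the spread between libraries. The number was 447 ± 291 for Simba1 and 739 ± 413 for Simba2 (SD, n = 2 each), and within batches Simba2 had 1.85 (batch 1) and 1.58 (batch 2) times as many. The difference of 292 peaks gave p = 0.667 by an exact two-sided permutation of the labels that ignores batch, for which the smallest possible p is 0.333. Paired by batch, exact sign-flips gave p = 0.5, the smallest possible. With summits of 3 tags or more, the numbers were 231, 633, 282 and 597, and the difference was 7.5. With lists cut to equal length they were 241, 544, 269 and 359, and the difference turned to −78.5, with Simba2 lower in batch 2. At a q of 0.05 or lower they were 135, 348, 167 and 397, and at a q of 0.001 or lower 54, 84, 59 and 172, where 23.5%, 9.33%, 21.1% and 24% of all peaks in the lists passed.

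As a share of its list, the number was 1.40% (95% exact Clopper-Pearson interval 1.23% to 1.58%) in Simba1 batch 1, 3.11% (2.88% to 3.35%) in Simba1 batch 2, 1.99% (1.81% to 2.18%) in Simba2 batch 1 and 2.93% (2.75% to 3.11%) in Simba2 batch 2. These intervals cover counting error only. Simba2 was higher by 0.592 percentage points in batch 1 and lower by a difference of −0.180 points in batch 2, a mean of 0.206 (exact permutation test, p = 1). The batches thus differed more than the proteins, with both batch 2 lists above both batch 1 lists.

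The median pileup divided by the filtered tags of the smaller library, in 1000000 tags, was 6.72 and 3.98 for Simba1 and 3.74 and 2.37 for Simba2. It was lower for Simba2 in both batches, by a mean difference of −2.29 (exact permutation test, p = 0.333, the smallest possible). When summits under 3 tags were left out the sign turned, to 0.289. Over the 20 exact tests of this kind, p adjusted by the Benjamini-Hochberg method ran from 0.313 to 1.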

How the data were processed

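DamID was done in larval brains with 6 samples, 1 each of Dam, Dam-Simba1 and Dam-Simba2 in 2 batches, per the labels. Per the submitters' processing notes, bcl2fastq 2.19.0.316, FastQC, Bowtie2 and ChIPseeker were used with dm6. Peaks came from MACS 3.0.0, run by the authors on 1 fusion library and the Dam sample of the same batch at a time, per the file headers, with at most 1 tag per position, a q cutoff of 1 and a genome size of 2.91e+09 bp. That size sets the lowest lambda in the 4 lists, at 0.0826, 0.123, 0.0832 and 0.122 tags (Simba1 batches 1 and 2, then Simba2). At it sat 22, 73, 139 and 133 scaffold and rDNA peaks. A smaller size raises this floor, so lambda, fold and q of other peaks with a low lambda could change as well. Peaks were not called again, so how far the values here depend on the size was not tested. MACS estimates lambda over windows of up to 10 kb, and 721 of the 796 sequences had a highest listed end below 10 kb.

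The deposited pileup signal is coverage by extended tags, scaled to the smaller library. The deposited fold enrichment is the ratio of pileup + 1 to lambda + 1, and −log10 p and −log10 q were deposited as MACS gave them. Tags per summit were recovered by dividing the pileup by the scale, with a largest gap to a whole number of 0.00686, and lambda from the fold. A Poisson p from both matched the deposited −log10 p within 0.01 for 100% of the selected peaks, 2 very strong ones not being checked.

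Members were taken by sequence name. Peaks were merged where they shared 1 bp. The library was the replicate. Comparisons used exact permutation (2 against 2) or exact sign-flips over 4 libraries, checked on small fixed sets of values. The merging of peaks and the recovery of lambda were checked on simulated data. Batch numbers come from the labels, which name a batch, so the same number pairs libraries and a shared Dam control. Across 796 sequences the same-numbered libraries' deviations had a correlation of 0.388, and the within-batch differences are given. The alternatives were q limits of 0.05 and 0.001, lists of equal length, other sequence sets, arms with Y, overlap of 50%, another scaling and summary, leaving out each library, and, added after seeing the data, summits of 3 tags or more and peaks that do not start at base 1.

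Named items were the rDNA sequence, scaffolds among the 12 with most peaks in all 4 lists, the 3 tallest and the top peak by q of each list, and the 6 regions in all 4 lists with the highest mean rank by q. The longest peaks, those above 50-fold and those above the tallest arm peak were also named. Members, lists and rules were chosen with earlier results of these data known. Python 3.11.15, pandas 2.3.3, NumPy 2.4.6 and SciPy 1.17.1 were used.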

Additional observations from a re-analysis of the deposited data

Results flagged for a closer look

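2 comparisons with the arms went in opposite directions for the 2 proteins in every library. Median peak length on scaffolds over arms was lower in both Simba1 lists and higher in both Simba2 lists, and the log2 ratio of Simba2 minus that of Simba1 was 0.31. Median fold enrichment on scaffolds over arms was higher in both Simba1 lists and lower in both Simba2 lists, with a difference of −0.30. The exact two-sided permutation test of either difference gave p = 0.333, the smallest that 2 against 2 libraries allow. The Simba2 lists held 25.3% and 24.2% of summits of 1 tag on scaffolds. The Simba1 lists held 0%, and a 1-tag peak falls short of where those lists end. Without summits under 3 tags the opposite directions did not hold. The log2 ratio of fold was then 0.04 and 0.24 in the Simba1 lists and 0.12 and 0.07 in the Simba2 lists, above 0 in all 4, and that of length was −0.26, −0.16, −0.17 and 0.09, with Simba2 batch 1 below 0.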

How the results depend on the processing

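Over 10 results, 112 alternatives were computed. Of these, 82 kept direction (counts within 1.5 times), 21 turned the direction or, in 1 case, brought the difference to 0, and 9 moved a count. None could give a p below 0.05, since the smallest possible p was 0.125 by sign-flips and 0.333 by permutation of the labels. The lower pileup (12 alternatives) and lower lambda (11) of scaffolds against arms kept their direction in each. The number of peaks, Simba2 minus Simba1, became −78.5 with lists of equal length. The share became −0.889 points at q of 0.05, −1.17 at q of 0.001, −0.455 with equal lists, −0.654 with summits of 3 tags or more and −0.267 without peaks starting at base 1. The pileup per 1000000 tags became 0.967, 2.90, 0.612 (equal lists) and 0.289 (3 tags or more) in turn. The fold ratio to the arms became 0.066, 0.123, 0.116 (3 tags or more) and 0.0198 (base 1). The share of peaks with q of 0.05 became 3.88 points with 3 tags or more. Sequences in all 4 lists (75) numbered 30 and 9 at q of 0.05 and 0.001 and 49 with equal lists, and merged regions (41) numbered 16, 3 and 27. Stricter lists hold fewer peaks; for the other changes the cause was not tested.

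Leaving out 1 library gave differences of 0 to 584 in number, −0.648 to 1.06 points in share and −3.66 to −0.926 in pileup per 1000000 tags. Against the arms it gave log2 ratios of −1.27 to −0.88 for pileup, −0.13 to 0.0057 for length, −0.11 to 0.0325 for fold and −1.92 to −1.47 for lambda, and −13.1 to −3.08 points for q. Sequences in all remaining lists numbered 79 to 116 (116 without Simba1 batch 1) and regions 48 to 92 (77 without Simba1 batch 1, 92 without Simba1 batch 2), since 3 lists were then asked for. With batch as a replicate block the differences were 292 peaks (exact p = 0.5, the smallest possible), 0.206 points (p = 1) and −2.29 (p = 0.5), and the block changed no call. With 2 libraries a protein and under 3 tags at many summits, small differences were not detectable.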
